A study of Homo sapiens with 16 samples.

Results

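The contractile and CCN mechanoresponse genes are 10 genes: ACTA2, TAGLN, CNN1, MYL9, MYH11, CALD1, TPM1, TPM2, CCN1 and CCN2. The set was chosen with earlier results of these data known. Its genes were found by their Ensembl identifiers among the 60649 genes of the count table. Of the 10, 9 had enough reads to be tested, and MYH11 had not. The libraries were 16 samples of poly(A) RNA from ASC52telo, a line of adipose mesenchymal stem cells (MSCs) immortalized with telomerase reverse transcriptase, with 4 biological replicates in each of 4 groups. All cells were grown in medium with serum. The MmC-/GDF11- cells received neither agent, and the MmC-/GDF11+ cells received recombinant GDF11 at 10 ng/mL over 10 days. The MmC+/GDF11- cells were exposed at near confluence to 1.5 µg/mL of the DNA-alkylating drug mitomycin C (MmC) for 18 h, which made them senescent in the study's terms, and then cultured for 10 days. The MmC+/GDF11+ cells received MmC and then GDF11. Cells without MmC are called young. The replicates come from 1 line, and every sample carries the same run label.

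Contraction in smooth muscle cells and stress fibres depends on actin filaments, on the tropomyosins, calponin and caldesmon bound along them, and on myosin whose regulatory light chain is phosphorylated. Many of these genes are controlled by serum response factor (SRF) with its cofactors of the myocardin family, which bind CArG boxes. CCN1 and CCN2 encode secreted matrix-associated proteins and are widely used as readouts of YAP and TAZ, which reach DNA through TEAD proteins when cells are spread or under tension. Senescent cells in culture are typically large and flat, and GDF11 is a ligand of the TGF-beta family, which is known to raise several contractile genes in fibroblasts.

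Total counts were between 71275337 and 144204979 per library. All 6 MSC markers were expressed, at a summed level of 5090 to 6700 CPM (read counts scaled to a library size of 1e+06) per library. The endothelial, leukocyte, epithelial and adipocyte markers summed to at most 21.8, 5.54, 1.13 and 2.49 CPM. Among the leukocyte markers, CD68 shares 81.6% of its exonic bases with another gene on the same strand. PTPRC shares 58.8% of its exonic 31-base words with alternate contigs of the assembly. Reads of both may have been left uncounted, so the leukocyte sum may be too low. Of the 6 smooth muscle markers, DES, MYH11 and MYOCD had medians under 1 CPM in every group, and the sum was 116 to 193 CPM.

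By level per length over the joined exons of a gene, TPM2 and MYL9 stood highest and CNN1 lowest among the members tested. In MmC-/GDF11- the levels per length (FPKM, the CPM divided by kilobases, over the joined exons of GENCODE v44) were 353 ± 72.6 for TPM2 and 351 ± 113 (SD, n = 4) for MYL9. CCN1 had 176 ± 46.9 FPKM, CALD1 87.6 ± 16.4 FPKM and CCN2 71.0 ± 21.5 FPKM. ACTA2, smooth muscle alpha-actin, had 14.1 ± 4.66 FPKM and CNN1, calponin 1, had 3.04 ± 0.992 FPKM. Over the joined exons, TPM2 and MYL9 differed by less than their SDs. CALD1 and CCN2 differed by about the SD of CALD1 and by less than that of CCN2. Over the canonical transcripts they lay further apart, with 944 ± 194 FPKM for TPM2 against 354 ± 114 FPKM for MYL9 and 171 ± 31.9 FPKM for CALD1 against 71.0 ± 21.5 FPKM for CCN2. The place of TPM1 depended on the length used: it was the 7th with 27.7 ± 3.24 FPKM over the joined exons and the 3rd with 335 ± 39.1 FPKM over its canonical transcript.

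MYH11 (ENSG00000133392.18, chr16:15703135-15857028, minus strand, hg38), the myosin heavy chain of smooth muscle, had 1 read in the 16 libraries. All 31-base words of its exons (100%) also occur on the alternate contigs of the assembly, as do those of its neighbour NDE1, which had group means of 0.00587 to 0.0817 CPM. Reads that align to several places may not have been counted, so the value of MYH11 does not show that the gene was silent.

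The spread among the 4 replicates of a group was large for most members and followed the replicate number. ACTA2, TAGLN, CNN1, MYL9, CALD1 and TPM2 were highest in replicate 1 in all 4 groups, so 6 of 9 members had this pattern against 9.34% of the 19103 tested genes. In replicate 4, ACTA2, TAGLN, MYL9, TPM1, TPM2, CCN1 and CCN2 were lowest in all 4 groups, which makes 7 of 9 members against 4.77% of the tested genes. The replicate number took up 97.6% of the sum of squares within groups for ACTA2, 95.2% for MYL9 and 72.3% for TPM1, with a median of 53.2% over all tested genes and 25% for a gene unrelated to the number. The SD within groups on the log2 CPM scale was 0.703 for TAGLN, 0.709 for CCN2 and 0.314 for CCN1, and its median over all tested genes was 0.257. What the number stands for, such as a day of culture, is not given in the sources used here. The study names batch effects among its limits, without saying which libraries they touch.

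**Figure D1:**
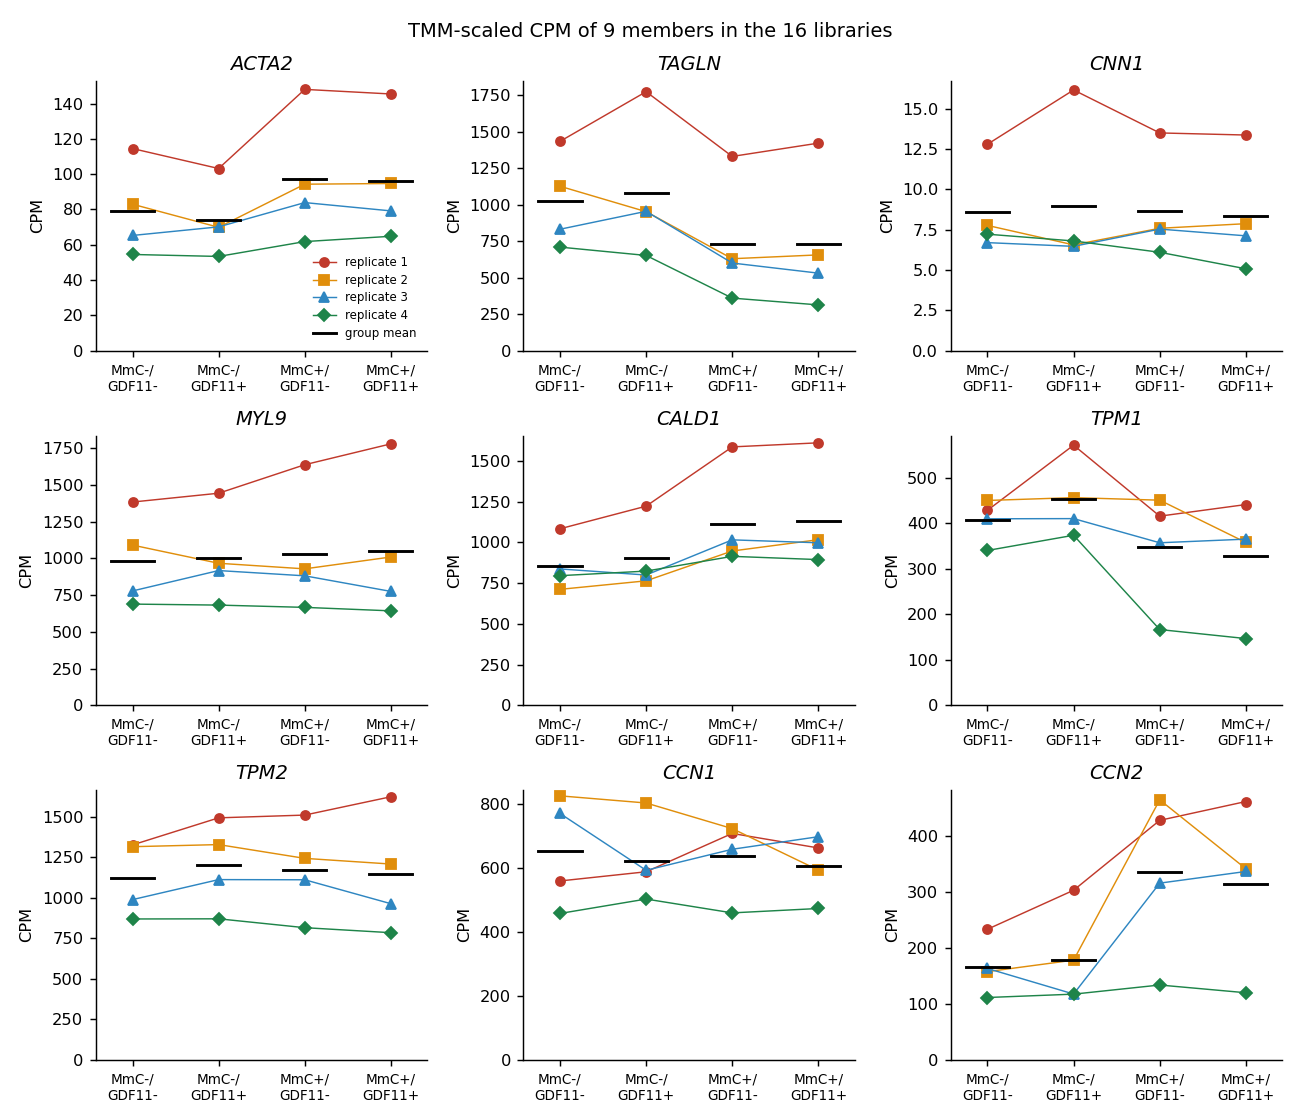
CPM of 9 members (vertical axes, linear from 0) in the 4 groups, with 1 point per library, lines that join libraries of the same replicate number and black bars for group means. Replicate 1 is the highest point of ACTA2 in every group, between 103 and 148 CPM, and replicate 4 the lowest, between 53.4 and 64.8 CPM.

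The members also deviated together. Over the 16 libraries, the deviations from group means on the log2 CPM scale had a Pearson correlation of 0.989 between ACTA2 and MYL9, 0.974 between ACTA2 and TAGLN, and 0.984 between TAGLN and MYL9. CCN2 deviated most like TPM1 (0.946), while CCN1 had 0.609 with CCN2 and 0.0924 with CALD1. These points share libraries and replicate numbers. Outside the members, the protein-coding genes that deviated most like ACTA2 were ITM2C (0.982), CLIC3 (0.976) and RHOD (0.975), and those most like CCN2 were NFATC1 (0.95), CCIN (0.947) and TNS3 (0.944). In replicate 1, the MSC markers summed to 5800 to 6700 CPM, against 5090 to 5990 CPM in the other replicates, and the smooth muscle markers to 148 to 153 CPM, against 116 to 193 CPM. The smooth muscle sum hides markers that differed: in MmC-/GDF11-, replicate 1 had the highest LMOD1 (61.7 CPM) and the lowest SMTN (89.0 CPM). The part of these markers in the spread was not tested.

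The effect of MmC was first compared without GDF11. No member passed the threshold in the test that ignores the replicate number (edgeR's quasi-likelihood test, Benjamini-Hochberg adjusted p under 0.05), whereas 45.3% of the tested genes did. The libraries of the 2 groups overlapped for all 9 members, and 37.3% of the tested genes did not overlap. The median standard error of the log2 fold change was 0.305 for the members and 0.182 for all tested genes. Same-numbered libraries of this comparison met the pairing rule used here, a correlation of their deviations over 0.1 for every number. Replicate 3 met it narrowly, with 0.113, and had up to 0.134 with another number. With the replicate number as a block, 4 of 9 members passed the same test, against 57.9% of the tested genes. ACTA2, CALD1 and CCN2 were higher after MmC, where 28.8% of genes were called higher, and TAGLN was lower, where 29.1% were called lower. These 4 passed with the block also without replicate 1 and without replicate 4. In these bulk samples, fewer cells that express a gene and less RNA per cell cannot be told apart.

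**Figure D2:**
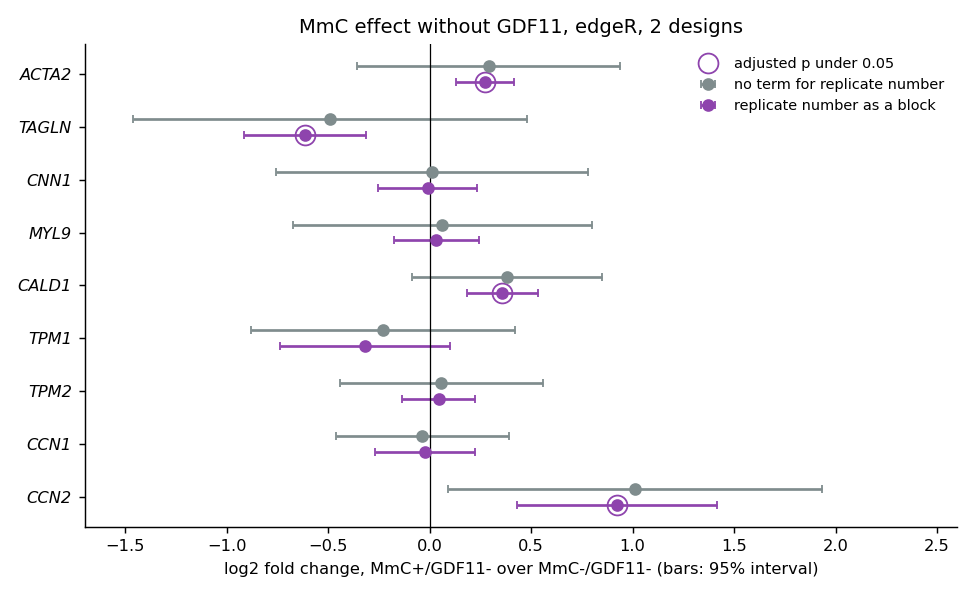
Log2 fold change of MmC+/GDF11- over MmC-/GDF11- (horizontal axis) for 9 members, with 95% intervals, without (grey) and with (purple) the replicate number as a block. The block leaves the estimates near their place, such as 1.01 and 0.92 for CCN2, and narrows the intervals; the 4 rings mark adjusted p under 0.05.

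ACTA2 (ENSG00000107796.13, chr10:88935074-88991339, minus strand) was higher after MmC in each replicate number. In replicates 1 to 4 it had 114.5, 83.0, 65.3 and 54.5 CPM in MmC-/GDF11- and 148, 94.3, 83.9 and 61.8 CPM in MmC+/GDF11-. The groups overlapped, and the ratio within a replicate number was between 1.13 and 1.29. The log2 fold change was 0.29 (SE 0.305, adjusted p = 0.464) without the block and 0.27 (SE 0.0669, adjusted p = 0.00264) with it, both by edgeR. On the opposite strand, ACTA2-AS1 and FAS overlap 36% of the exonic bases of ACTA2, and FAS, a death receptor and known p53 target, rose from 44.2 ± 5.17 to 87.9 ± 9.05 CPM (SD, n = 4) between these groups. The library kit marks strand, but the strand setting of the counting is not given in the sources used here, and the part of FAS reads in the ACTA2 values was not tested.

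TAGLN (ENSG00000149591.17, chr11:117199370-117207464, plus strand), an actin-bundling protein also called SM22-alpha, was lower. It had 1433, 1126, 832 and 710 CPM in MmC-/GDF11- (replicates 1 to 4) and 1330, 630, 600.5 and 360.5 CPM in MmC+/GDF11-. The fall was smallest in replicate 1, with a ratio of 0.928, and largest in replicate 4, with 0.508. With the block, the log2 fold change was -0.61 (SE 0.141, edgeR adjusted p = 0.00168), and without it -0.49 (SE 0.456, adjusted p = 0.405). Without replicate 1 of every group it passed also in the fit with no block, at -0.75 (adjusted p = 0.0426). Of its 31-base words, 22.5% occur elsewhere on the primary chromosomes. On the same strand ENSG00000280143, with 0.271 ± 0.0971 CPM (SD, n = 4) in MmC-/GDF11-, overlaps 38.1% of its exonic bases, and reads there may have been left uncounted. PCSK7 on the opposite strand overlaps 34.1% of its exonic bases and had 49.7 ± 4.17 and 40.6 ± 12.0 CPM (SD, n = 4) in these groups, a small level beside that of TAGLN.

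CALD1 (ENSG00000122786.20, chr7:134744252-134970729, plus strand) encodes caldesmon, which binds actin and restrains myosin. Its levels in replicates 1 to 4 were 1084, 712, 837.5 and 796 CPM in MmC-/GDF11- and 1587, 948, 1016 and 915 CPM in MmC+/GDF11-. Each replicate number was higher after MmC, by ratios of 1.15 to 1.46. The edgeR estimate was 0.38 on the log2 scale (SE 0.221, adjusted p = 0.173), or 0.36 (SE 0.0824, adjusted p = 0.00174) with the block. Without replicate 1 of every group the fit with no block gave 0.29 (adjusted p = 0.0225).

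TPM1 and TPM2, which encode tropomyosins, did not pass in either fit. TPM1 (ENSG00000140416.23, chr15:63042620-63071915, plus strand) had 428.5, 450.1, 410 and 340 CPM in MmC-/GDF11- and 416, 451, 357 and 166 CPM in MmC+/GDF11-. The low value of replicate 4 after MmC set the group mean apart: the log2 fold change was -0.23 (SE 0.306, edgeR adjusted p = 0.569) over all libraries and 0.01 without that library. TPM2 (ENSG00000198467.16, chr9:35681992-35690056, minus strand) had 868 to 1325 and 814.5 to 1509 CPM, with a log2 fold change of 0.06 (95% interval -0.44 to 0.56).

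MYL9 and CNN1 had no called change either. MYL9 (ENSG00000101335.10, chr20:36541497-36551447, plus strand), the regulatory light chain of smooth muscle myosin, had 1383, 1090, 778 and 688.5 CPM in MmC-/GDF11- and 1637, 928, 881 and 666 CPM in MmC+/GDF11-. CNN1 (ENSG00000130176.8, chr19:11538767-11550323, plus strand) had 12.8, 7.76, 6.70 and 7.22 CPM and 13.5, 7.59, 7.54 and 6.10 CPM. For each of them 2 of the 4 replicate numbers were higher after MmC. Their log2 fold changes were 0.06 (95% interval -0.67 to 0.80) and 0.01 (95% interval -0.76 to 0.78). With the block the intervals were -0.18 to 0.24 for MYL9 and -0.26 to 0.23 for CNN1.

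The pair of CCN genes differed in their estimates. CCN2 (ENSG00000118523.6, chr6:131948176-131951372, minus strand), also known as CTGF, had 233, 157, 163 and 111 CPM in MmC-/GDF11- (replicates 1 to 4) and 427, 464, 315 and 133 CPM in MmC+/GDF11-. Replicates 1 to 3 after MmC lay above every library without it, while replicate 4 did not. The ratio within a replicate number was 1.83, 2.95, 1.94 and 1.20. The log2 fold change was 1.01 (SE 0.432, edgeR adjusted p = 0.0679, unadjusted 0.0332) without the block and 0.92 (SE 0.226, adjusted p = 0.00418) with it. It passed without the block by DESeq2 (adjusted p = 0.0257), and by edgeR without MmC-/GDF11- replicate 1 (adjusted p = 0.0481), MmC+/GDF11- replicate 4 (0.0219) or MmC+/GDF11+ replicate 4 (0.0400). With any other single library left out CCN2 did not pass. Its edgeR adjusted p reached 0.302 when libraries were left out. CCN1 (ENSG00000142871.18, chr1:85580761-85584589, plus strand), also known as CYR61, had 558, 824, 769 and 457 CPM in MmC-/GDF11- and 707, 722, 657 and 459 CPM in MmC+/GDF11-. Its log2 fold change was -0.04 (95% interval -0.46 to 0.39), and 2 of the 4 replicate numbers were higher. The difference between CCN2 and CCN1 was not tested.

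**Figure D3:**
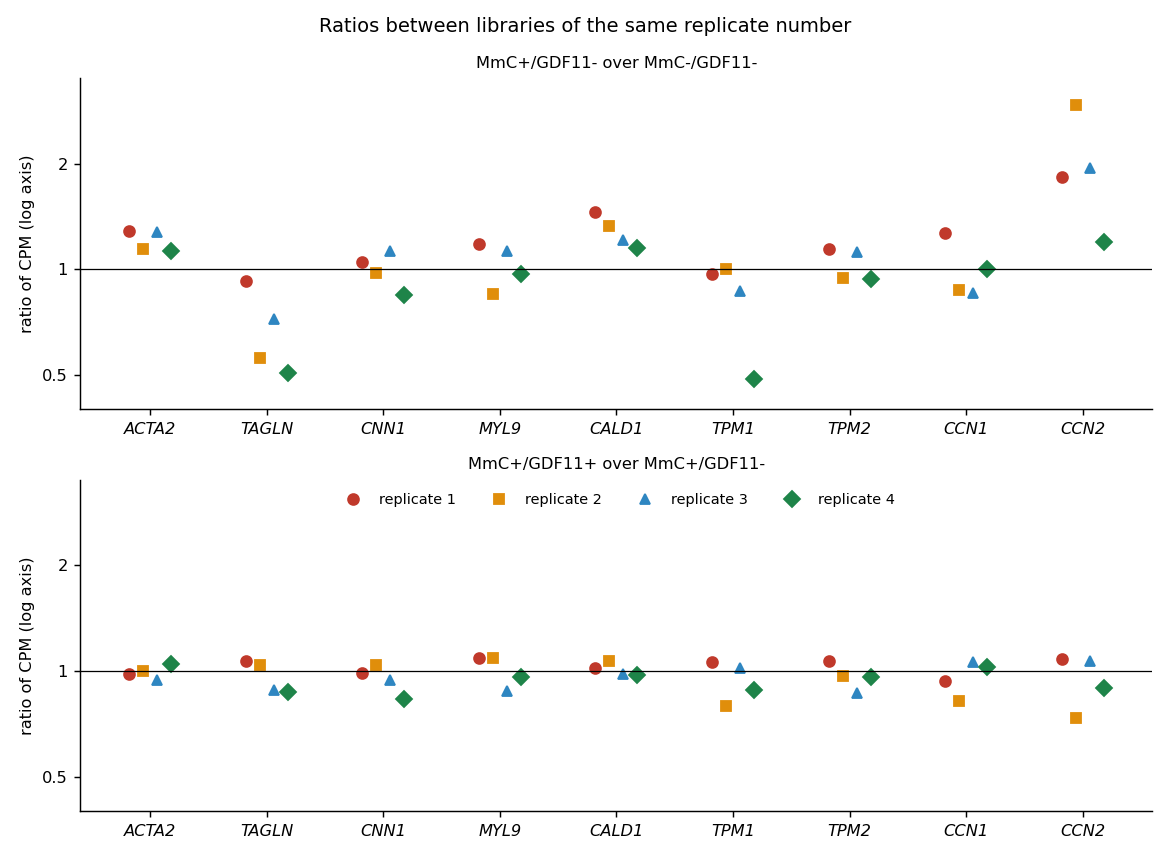
Ratio of CPM between libraries of the same replicate number (log axis, 1 point per replicate number) for MmC+/GDF11- over MmC-/GDF11- (top) and MmC+/GDF11+ over MmC+/GDF11- (bottom). In the top panel all 4 points of ACTA2, CALD1 and CCN2 lie above 1 and all 4 of TAGLN below it, a sameness of sign that 60.2% of the tested genes show; the lower panel spans 0.735 to 1.09.

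The promoters of ACTA2 and CCN2 are shown because these genes were called higher with the block and belong to the SRF and TEAD arms of the set. The sequences are the 250 bases before the annotated start, from RefSeq on GRCh38.p14, and capitals mark matches of GGAATG and of the CArG-like form.
ACTA2 chr10:88952774-88953023 (minus strand): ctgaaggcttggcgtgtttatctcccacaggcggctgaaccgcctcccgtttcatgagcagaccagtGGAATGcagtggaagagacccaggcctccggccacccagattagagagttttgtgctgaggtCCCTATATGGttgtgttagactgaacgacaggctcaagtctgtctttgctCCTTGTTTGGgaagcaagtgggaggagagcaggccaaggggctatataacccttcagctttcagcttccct
CCN2 chr6:131951373-131951622 (minus strand): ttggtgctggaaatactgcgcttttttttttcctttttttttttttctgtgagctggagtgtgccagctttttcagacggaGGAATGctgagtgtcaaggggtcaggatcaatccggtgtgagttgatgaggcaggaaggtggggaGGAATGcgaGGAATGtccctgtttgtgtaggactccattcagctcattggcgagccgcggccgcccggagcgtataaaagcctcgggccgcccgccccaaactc

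In the CCN2 window the TEAD core GGAATG occurs 3 times on the printed strand, with first bases at -169, -104 and -95 from the start. At least 1 match on either strand is present in 11.9% of 35116 promoters, and 3 or more in 0.0826%. The window also holds TATAAA at -32, as 10.7% of promoters do. The ACTA2 window has 1 GGAATG at -183 and CArG-like sequences at -121 and -71. RefSeq lists a second start of ACTA2, at the outer end of the gene, whose window (chr10:88991338-88991587) has 0 matches of either form and is not printed. CArG-like means a CC, 6 bases of which 5 are A or T, and GG, a form searched for after the strict CArG box, with all 6 bases A or T, had been found in none of the 11 promoters of the 6 members that matched. Of all promoters, 5.96% hold the CArG-like form and 1.16% the strict one. These are matches of letters and no measure of binding. CALD1, also called higher with the block, is not printed. Its window chr7:134711249-134711498 has 1 CArG-like match. Its windows chr7:134745217-134745466 and chr7:134779384-134779633 have 1 match of GGAATG each, counted on either strand, and chr7:134891208-134891457 has 0 of either form. The windows of CNN1, TPM1 and TPM2 have 0 matches of either form. TAGLN, MYL9, MYH11 and CCN1 had no entry.

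With GDF11 present, MmC+/GDF11+ was compared with MmC-/GDF11+, which are other libraries than those above. The test took its estimate of the spread from all 16 libraries, so the comparisons with and without GDF11 are not independent. Again 0 of 9 members were called by edgeR, against 46.7% of the tested genes, and no member had an unadjusted p under 0.05. Same-numbered libraries of this comparison did not all deviate together, so the block was not used for it, although calls of members depend on that choice. The libraries overlapped for all 9 members, whereas 41.5% of the tested genes did not overlap. CCN2 had 303, 178, 117 and 117 CPM in MmC-/GDF11+ and 461, 341, 336 and 120 CPM in MmC+/GDF11+, with 3 of the 4 libraries after MmC above every library without it. Its log2 fold change was 0.82 (SE 0.430, adjusted p = 0.134), and it passed without MmC-/GDF11+ replicate 1 (adjusted p = 0.0392) or without MmC+/GDF11+ replicate 4 (adjusted p = 0.0410). With any other single library left out it did not pass. TAGLN had 1773, 952, 954 and 652.5 CPM, and 1421, 656, 531 and 314 CPM, for a log2 fold change of -0.57 (SE 0.456, adjusted p = 0.327), and passed without replicate 1 of every group (adjusted p = 0.0378).

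The remaining members had smaller estimates. ACTA2 had 103, 69.9, 70.2 and 53.4 CPM in MmC-/GDF11+ and 145, 94.7, 79.2 and 64.8 CPM in MmC+/GDF11+, and CALD1 1223, 764, 800.0 and 824 CPM and 1612, 1017, 998 and 895 CPM. Their log2 fold changes were 0.37 (adjusted p = 0.337) and 0.32 (adjusted p = 0.245), and CALD1 passed without replicate 1 of every group (adjusted p = 0.0251). TPM1 had 572, 456, 410 and 374 CPM and 441, 358, 365 and 147 CPM, for a log2 fold change of -0.47 (adjusted p = 0.227). Replicate 4 after MmC was again its lowest library, but here the estimate stayed between -0.63 and -0.21 when libraries were left out. For MYL9, CNN1, TPM2 and CCN1 the log2 fold changes lay between -0.11 and 0.07, inside the spread between replicates. CCN1 had 502 to 802 CPM in MmC-/GDF11+ and 472 to 696.5 CPM in MmC+/GDF11+.

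GDF11 had no detected effect on the members in young or in senescent MSCs. No member and no gene (0%) was called by edgeR for GDF11 in young cells, in senescent cells or for the interaction of MmC and GDF11. At an unadjusted p under 0.05 there were 226, 96 and 172 of the 19103 genes, and 0 members in each. Each of these counts is a smaller share of the genes than the 0.05 that chance alone would give. The test may therefore have been conservative here, and the lack of calls does not show that GDF11 had no effect. DESeq2 called 1 gene in young cells and none in senescent cells. The largest GDF11 effect estimated for a member in either kind of cell was 0.15 for TPM1 in young cells (95% interval -0.50 to 0.80). The widest interval there was that of TAGLN, from -0.89 to 1.05, and in senescent cells that of TAGLN ran from -0.97 to 0.97 and that of CCN2 from -1.0 to 0.82. With the replicate block, the intervals in senescent cells were -0.34 to 0.25 for TAGLN and -0.59 to 0.38 for CCN2. In senescent cells, where same-numbered libraries deviated together, the ratio within a replicate number lay between 0.735 and 1.09 for all 9 members. The interaction was -0.24 (95% interval -1.16 to 0.68) for TPM1, the largest among the members, and -0.20 (95% interval -1.49 to 1.09) for CCN2.

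The other genes around the members were read from lists drawn up from general knowledge, with earlier results of these data known. Of the 27 other contractile and actin-bundle genes, 16 fell and 1 rose after MmC without GDF11, and 16 fell and 0 rose with GDF11, with median log2 fold changes of -0.60 and -0.62 against -0.01 and -0.01 over all tested genes. Among all tested genes 22.4% and 23.3% were called lower and 22.9% and 23.4% higher. MYL6, the essential light chain of non-muscle and smooth muscle myosin, fell by 1.00 on the log2 scale without GDF11 (edgeR adjusted p = 0.00172) and by 1.20 with it. CNN2, a calponin of non-muscle cells, fell by 1.01 and 0.92, with 27.9% of its 31-base words found elsewhere on the primary chromosomes. With GDF11 its call was lost without MmC+/GDF11+ replicate 3 (adjusted p = 0.0545) or replicate 4 (adjusted p = 0.0550).

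Several close relatives of the members, chosen here after their values were seen, were among those that fell. The cytoplasmic actins ACTB and ACTG1 fell by 0.77 and 0.72 on the log2 scale without GDF11, the tropomyosins TPM3 and TPM4 by 0.46 and 0.44, and TAGLN2 and CNN3 by 0.97 and 0.72. MYL12A, a regulatory light chain like MYL9, had a log2 fold change of -0.04 that did not pass, and MYL12B fell by 0.60. Among the 31-base words of ACTB, 21.6% occur elsewhere on the primary chromosomes. The share was 23.3% for TPM4, 21.0% for TAGLN2, 19.9% for TPM3 and 17.9% for MYL12B. It was 16.4% for MYL12A, 13.6% for ACTG1 and 3.70% for CNN3. Differences between the members and these relatives were not tested.

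**Figure D4:**
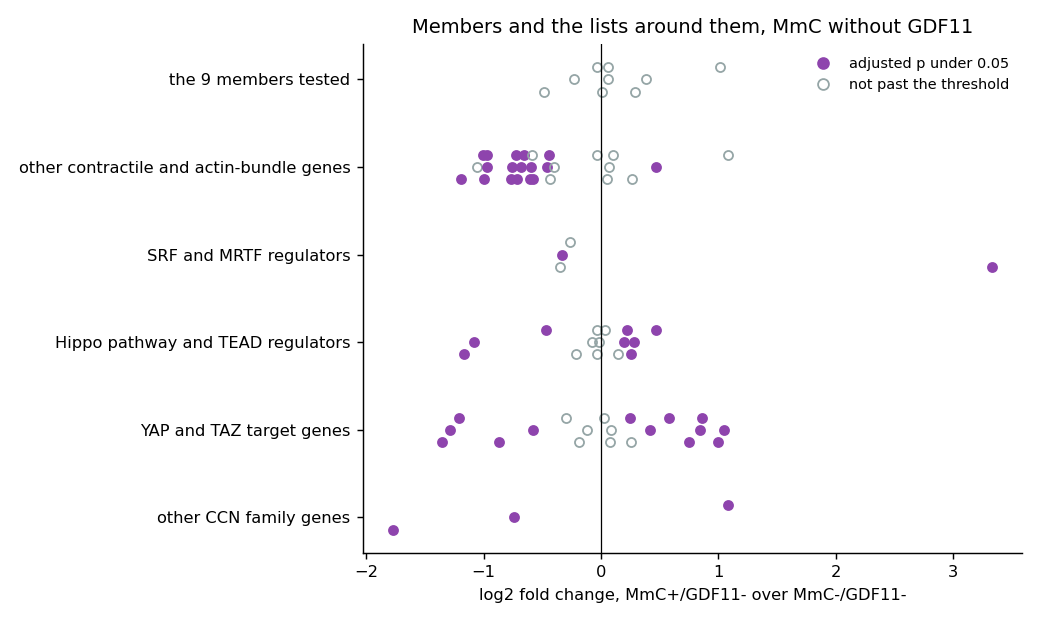
Log2 fold change of MmC+/GDF11- over MmC-/GDF11- (horizontal axis) for the 9 members and for the genes of the other lists described here, 1 point per gene, filled where the adjusted p is under 0.05 in the fit without the block. In the row of other contractile genes 16 filled points lie left of 0 and 1 right of it, and no member is filled.

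Of the SRF and MRTF regulators, MRTFA fell and MYOCD rose in both comparisons. MRTFA, an actin-sensing cofactor of SRF, had log2 fold changes of -0.34 and -0.33 (edgeR adjusted p = 0.00348 and 0.00355). SRF had -0.27 and -0.22 (adjusted p = 0.0506 and 0.0998), and MRTFB -0.35 and -0.20 (adjusted p = 0.133 and 0.395). With the block, all 4 passed without GDF11, against 2 without the block, where 57.9% and 45.3% of all tested genes passed, SRF at an adjusted p of 0.00539 and MRTFB at 0.0165. MYOCD, the myocardin of smooth and cardiac muscle, rested on few reads: 6 in all MmC-/GDF11- libraries and 67 in all MmC+/GDF11- libraries, a ratio of 10.7 (95% interval 4.67 to 30.2, counting error only), and 4 and 87 with GDF11, a ratio of 16.4 (6.16 to 61.4). Its highest group mean was 0.239 CPM.

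Among the 15 Hippo pathway and TEAD regulators, 5 rose and 3 fell without GDF11, and 4 and 3 with it, shares near those of all tested genes (22.9% higher and 22.4% lower without GDF11, 23.4% and 23.3% with it) except for the 5 that rose. YAP1, the coactivator, had log2 fold changes of 0.03 and 0.11 that did not pass. Its paralogue TAZ (WWTR1) rose by 0.28 (adjusted p = 0.0357) and 0.38 (adjusted p = 0.00634), and the kinase LATS2, which restrains both and is itself a YAP target, rose by 0.47 and 0.46. The transcription factors TEAD2 and TEAD4 fell by 1.17 and 1.08 without GDF11 and by 1.16 and 1.13 with it. All of these adjusted values are from edgeR. Without GDF11 the call of WWTR1 was lost when MmC-/GDF11- replicate 2 (adjusted p = 0.0950), MmC+/GDF11- replicate 3 (0.0583) or MmC+/GDF11- replicate 4 (0.0866) was left out.

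The 20 YAP and TAZ target genes other than CCN1 and CCN2 moved in both directions, with 8 higher and 5 lower without GDF11 and 6 higher and 4 lower with it, where 22.9% and 22.4% of all tested genes were called higher and lower without GDF11 and 23.4% and 23.3% with it. The share called lower was near that of all genes. AMOTL1, an angiomotin, and FJX1 rose by 1.04 and 1.00 without GDF11 and by 0.99 and 1.06 with it. AXL, a receptor tyrosine kinase, fell by 1.35 and 1.42, and CCDC80, a matrix protein, fell by 1.29 and 1.13, the second a call lost at adjusted p values of 0.0526 to 0.0586 without MmC-/GDF11+ replicate 1 or any of MmC+/GDF11+ replicates 2 to 4. The list's median log2 fold change was 0.08 without GDF11 and 0.06 with it.

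The other CCN genes that were tested moved apart: CCN4 rose by 1.08 and 0.89, and CCN3 and CCN5 fell by 0.74 and 1.77 without GDF11 and by 0.74 and 1.37 with it. With single libraries left out, CCN3 lost its call at adjusted p values of up to 0.0837 without and 0.0963 with GDF11. CCN6 had 6 reads in MmC-/GDF11- and 33 in MmC+/GDF11- and was not tested. Without GDF11 the summed pericyte markers were 108 to 144 CPM in young and 147 to 156 CPM in senescent cells, and the summed smooth muscle markers 153 to 193 and 122 to 174 CPM. The pericyte markers differed in direction: NOTCH3 had 51.5 ± 11.7 CPM in young and 120 ± 4.47 CPM in senescent cells, and CSPG4 67.0 ± 14.1 and 25.98 ± 4.30 CPM (SD, n = 4). The part of these levels in the results was not tested.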

How the data were processed

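Poly(A) RNA of 16 libraries was analysed, with groups and replicate numbers from the sample labels. Raw counts of reads per gene (GENCODE release 38) were deposited by the authors, who had used HISAT2 2.2.1 on hg38 and then featureCounts 2.0.1. The settings for strand and for reads that align to several places are not given in the sources used here, and reads lost to several alignments lower a gene's count.

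Tests were run with edgeR 4.0.16 (R 4.3.3): filterByExpr (minimum count 10, minimum total 15), TMM scaling, and the robust quasi-likelihood test on all 16 libraries with 1 mean per group, adjusted by Benjamini-Hochberg over 19103 genes at 0.05. CPM are TMM-scaled. The steps were tested on simulated data with 200 changed genes. The simulation gave all genes the same dispersion (the spread beyond counting error) and no effect of the replicate number, so it cannot bear on the block. DESeq2 1.42.0, limma-voom (limma 3.58.1), other scalings and filters, fits on only the libraries compared, the replicate number as a block, and fits without each library or replicate number were alternatives. The block without replicates 1 or 4, and canonical transcript lengths, were added after seeing the data.

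Same-numbered libraries were taken to pair where the correlation of their deviations from group means was over 0.1 for every number. MmC without GDF11 had a lowest value of 0.113, and the addition of GDF11 to senescent cells one of 0.448. The pairing comes from the data, since the sources used here state none.

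Of the identifiers, 186 did not match GENCODE v44, which gave positions and lengths, since the table has no lengths. Alternate contigs (261) and other loci were searched by words of 31 bases. Promoters came from RefSeq, for 6 members. No protein sequence was used.

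The members and lists were chosen with earlier results of these data known. Beyond the members, the text names SRF, MRTFA, MRTFB, MYOCD, YAP1 and WWTR1. 1 further list is not reported here. From each list reported it also names at most the 2 highest and 2 lowest genes that average at least 1 on the log2 CPM scale and have an adjusted p under 0.05 in both MmC comparisons in 1 direction, and the 3 protein-coding genes that deviate most like ACTA2 or CCN2 among genes with that mean. Intervals on few reads cover counting error only.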

Additional observations from a re-analysis of the deposited data

Results flagged for a closer look

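In 4 of 36 sets of 4 replicates, 1 library lay far from the other 3 by Dixon's test, which chance alone does in about 1 of 20 sets, and each was replicate 1. CNN1 in MmC-/GDF11+ had 16.15 CPM in replicate 1 and 6.47 to 6.80 CPM in the others. CALD1 in replicate 1 had 1223 CPM in MmC-/GDF11+ (others 764 to 824 CPM), 1587 CPM in MmC+/GDF11- (others 915 to 1016 CPM) and 1612 CPM in MmC+/GDF11+ (others 895 to 1017 CPM). The sets are not independent, since they share libraries.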

How the results depend on the processing

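The calls of the members depend on whether the replicate number enters the fit and on replicates 1 and 4. For MmC without GDF11, 0 members were called under the other scalings and filters and by limma-voom, 4 with the replicate block (ACTA2, TAGLN, CALD1 and CCN2; 4 with the block also without replicate 1 and 4 without replicate 4), and 1 (CCN2) by DESeq2 and with only the libraries compared. Leaving out libraries gave 0 to 2, with TAGLN and CALD1 called without replicate 1 and CCN2 without replicate 4. Replicate 3 of this comparison had a correlation of 0.113 with its own number and up to 0.134 with another. For MmC with GDF11 the same-numbered libraries were not taken to pair (lowest correlation 0.0293 in replicate 3, which had up to 0.0533 with another number). There the block called 5 members (ACTA2, TAGLN, CALD1, TPM1 and CCN2, where 59% of all genes were called), 3 with the block without replicate 1 and 4 without replicate 4, and leaving out libraries gave 0 to 2. Over all genes, 5490 to 10004 were called without and 5505 to 10164 with GDF11 when libraries were left out (8655 and 8926 over all libraries), the fewest without replicate 3 of every group. For GDF11 in young cells DESeq2 called 1 gene, and leaving out libraries 0 to 1; the block (lowest correlation 0.0982 in replicate 3, with up to 0.105 to another number, so not taken to pair) and all other alternatives called 0. In senescent cells and for the interaction 0 genes were called under every alternative that was run. With the block, 551 genes in young cells, 145 in senescent cells and 296 for the interaction had an unadjusted p under 0.05. The interaction was not run with only the libraries compared. Among the other genes named, CCN3 reached adjusted p = 0.17 and 0.133, WWTR1 0.156 and 0.0795, CNN2 0.096 and 0.114 and CCDC80 0.0578 and 0.103 without a replicate number in all groups, MRTFA 0.0517 without and CCN5 0.076 with GDF11, and SRF passed by limma-voom without GDF11 (0.0484); all kept their direction. With no filter WWTR1 (0.0847) and CCN3 (0.0842) lost their calls without GDF11, and CNN2 (0.0559), CCDC80 (0.0611) and CCN3 (0.087) with it. The cause was not tested. Except for the calls named here and in the results, the block changed no call of a member.

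Signs changed only for estimates that no fit called. Without GDF11, MmC gave 0.006 for CCN1 at 10 counts in every library and -0.011 for CNN1 with the block. With GDF11 it gave 0.009 (upper quartile) and 0.014 (10 counts) for CCN1. GDF11 in young cells gave -0.004 (block) and -0.013 (limma-voom) for CNN1, and in senescent cells -0.005 (no filter), -0.046 (block) and -0.036 (limma-voom) for TAGLN. With libraries left out, the log2 fold changes of MmC without GDF11 ran from -0.163 to 0.107 (CCN1), -0.273 to 0.276 (CNN1), -0.245 to 0.282 (MYL9), -0.369 to 0.012 (TPM1), -0.079 to 0.205 (TPM2) and -0.041 to 0.113 (YAP1), and with GDF11 from -0.114 to 0.123 (CCN1), -0.418 to 0.349 (CNN1), -0.300 to 0.312 (MYL9) and -0.275 to 0.089 (TPM2). For GDF11 in young cells they ran from -0.301 to 0.138 (ACTA2), -0.109 to 0.211 (CALD1), -0.218 to 0.062 (CCN1), -0.276 to 0.318 (CCN2), -0.385 to 0.318 (CNN1), -0.207 to 0.237 (MYL9), -0.268 to 0.289 (TAGLN) and -0.030 to 0.223 (TPM2). In senescent cells they ran from -0.279 to 0.266 (ACTA2), -0.197 to 0.241 (CALD1), -0.196 to 0.034 (CCN1), -0.352 to 0.182 (CCN2), -0.369 to 0.242 (CNN1), -0.339 to 0.354 (MYL9), -0.537 to 0.466 (TAGLN), -0.313 to 0.162 (TPM1) and -0.241 to 0.120 (TPM2). CPM on total counts differed from TMM-scaled CPM by -8.43% to 4.59%.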
